A study of Mus musculus with 4 samples.

Results

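Pcsk5 encodes a proprotein convertase, and the stretch of mouse chromosome 19 that holds it was examined for FOXA2 binding and for elongating RNA polymerase II in the uterus. The members are all listed intervals that overlap chromosome 19, 17480000 to 17930000, by at least 1 bp. They were 22 of the 35977 intervals in the series, and all 22 came from 1 list, that of adult POL2. The window was chosen by earlier results of these same lists, namely adult POL2 cover with no PD12 POL2 and no FOXA2, so the counts and distances given for it are descriptions and no test is attached to them.

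The series consists of 4 chromatin immunoprecipitation sequencing (ChIP-seq) libraries from whole mouse uterus, 1 for each antibody and stage. The stages were postnatal day 12 (PD12), when the uterine glands develop, and the adult in pseudopregnancy, the hormonal state after a sterile mating, with days 2.5 and 3.5 named together on each adult library. The sources used here give neither the strain nor the number of animals nor how both days were combined. The antibodies were against FOXA2, the forkhead factor of uterine gland cells, and against RNA polymerase II with phosphorylated serine 2 in the C-terminal repeat (POL2), which marks polymerase in elongation along gene bodies. The lists held 814 (PD12 FOXA2), 10373 (adult FOXA2), 9972 (PD12 POL2) and 14818 (adult POL2) intervals, with no height, score or read count. Depth is therefore unknown, and a region without a listed interval is a region below an unknown threshold, not one shown to lack binding. With 1 library a group, stages could not be compared against replicate spread, and depth, threshold and stage cannot be told apart. In whole tissue, more POL2 per cell and more cells with POL2 on the gene cannot be told apart either. Nor do the lists show whether FOXA2 and POL2 intervals come from the same cells. The tissue label could not be checked against marker genes, since no gene annotation on the build of the files was used.

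Proprotein convertases are secreted or membrane-bound serine proteases of the subtilisin type that cut precursor proteins after paired basic residues and so release mature growth factors, hormones and adhesion molecules. PCSK5, also called PC5 or PC6, processes members of the TGF-beta superfamily among other substrates, and in the uterus it is known for its part in decidualization and implantation. Serine 2 phosphorylation of polymerase accumulates as transcription moves from the start of a gene toward its end.

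Positions are given as in the files and were taken as mm9 when the window was set, although the sources used here name no build. The gene table at hand (RefSeq, GRCm38.p6) lists Pcsk5 (gene 18552) on the minus strand, so its start lies on the side of higher positions, called the upper side here. In that table the next coding gene on the lower side is Rfk, followed by Gcnt1, and the next on the upper side is Ostf1. Exons, introns and untranslated parts could not be assigned to the domains. The promoter is shown because POL2 was listed near the upper end of the window while FOXA2 was not. These are the 250 bases before the Pcsk5 start from RefSeq, GRCm38.p6, chr19:17837633-17837882, minus strand, coordinates that cannot be set against those of the files. The capitals mark the only match to GTTTAC, the shorter core of a forkhead site.

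Pcsk5: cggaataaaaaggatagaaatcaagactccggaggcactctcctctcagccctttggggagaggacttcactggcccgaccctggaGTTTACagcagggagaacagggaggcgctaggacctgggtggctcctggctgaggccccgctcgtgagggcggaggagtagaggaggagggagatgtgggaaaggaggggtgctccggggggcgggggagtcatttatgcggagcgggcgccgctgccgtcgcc

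Motifs were searched on both strands over the same 250 bases of 32851 RefSeq promoters. The full forkhead letters TGTTTAC were not found before Pcsk5, and 3.17% of all promoters held them. TATTTAC was not found either, and 2.73% of promoters held it. GTTTAC, which is contained in TGTTTAC and was added after the sequence had been read, matched 164 to 159 bases before the start and occurred in 6.92% of promoters. The progesterone and glucocorticoid receptor half-site TGTTCT matched 1 time (16.1% of promoters), the SP1-type box GGGCGG 2 times (32.7%), and TATAAA did not match (12.4%). The promoter was GC-rich, at 64% G and C against a median of 52.4%, and held 15 CG pairs, within the interquartile range of all promoters (2 to 16, median 6). These matches describe letters and not occupied sites.

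In the adult, POL2 was listed over more than 50% of the Pcsk5 window, and the other 3 lists had nothing there. The 22 adult POL2 domains covered 241.6 kb of the window (53.7%). PD12 POL2 covered 0 kb with 0 intervals, adult FOXA2 0 kb with 0 intervals and PD12 FOXA2 0 kb with 0 intervals. Over all chromosomes, up to the last listed interval of each, adult POL2 covered 3.62% and PD12 POL2 2.67%, and on chromosome 19 they covered 6.16% and 4.06%. The longer adult list covered 1.35 times the bases of the PD12 list in all.

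**Figure D1:**
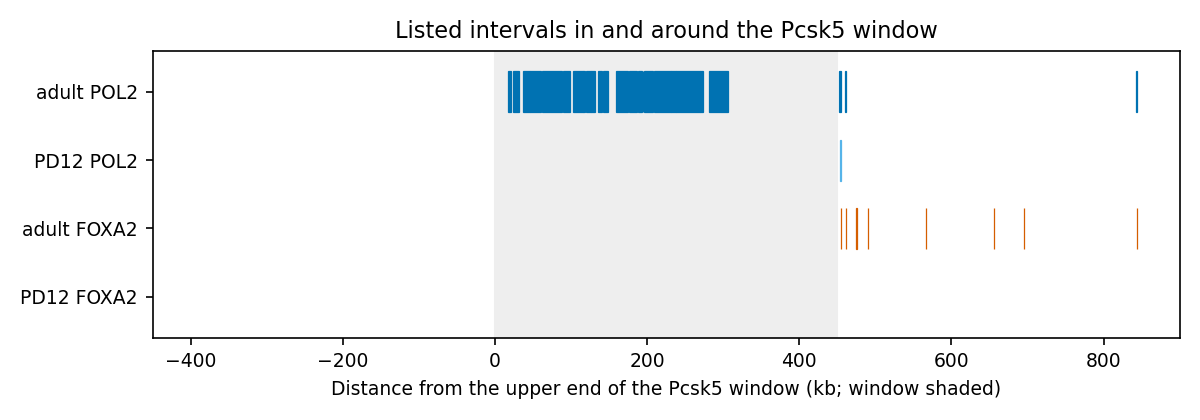
Intervals of the 4 lists (rows, 1 library each) by distance in kb from the upper end of the Pcsk5 window, which is shaded; values to the right run toward lower positions, and intervals narrower than the line are drawn at its width. The 22 adult POL2 domains cover 241.6 kb of a 288.8 kb span in the shaded window, where the other 3 rows are empty, while 8 adult FOXA2 intervals lie to its right.

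The domains formed an almost continuous block on the upper side of the window. They ran from 17623600 to 17912399, a span of 288.8 kb of which 83.7% was covered, and the gaps between them added up to 47.2 kb. The block ended 17.6 kb inside the upper edge of the window. On the lower side, 143.6 kb of the window held no domain. In bins of 50 kb counted from the upper edge, adult POL2 covered 24.0 kb in the first bin, 46.6 kb in the second, 38.0 kb in the third, 37.8 kb in the fourth, 47.4 kb in the fifth, 41.4 kb in the sixth and 6.40 kb in the seventh. The last 2 bins, farthest from the side of the gene's start, held 0 kb. Listed cover was thus highest in the second and the fifth bin, and none was listed in the lowest 143.6 kb of the window. How much of that part lies in Pcsk5 was not determined, since the gene's ends were not placed on these positions.

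Joined across gaps of up to 5 kb, the 22 domains became 3 stretches. The stretch nearest the upper side, 17781800 to 17912399 (130.6 kb), was made of 12 domains and 83.2% covered. The middle stretch, 17656000 to 17771199 (115.2 kb), was made of 9 domains and 94.1% covered. The lowest was a single domain of 24.6 kb at 17623600 to 17648199. The first pair held nearly the same covered length, 108.6 and 108.4 kb, and ranked 20 and 21 by adult cover among 11353 stretches of either stage. The gaps between the 3 stretches were 10.6 and 7.8 kb.

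The individual domains were 1.0 to 30.8 kb wide, with a median of 8.3 kb (interquartile range 5.4 to 13.55 kb). The median of all 14818 adult domains was 4800 bp (2800 to 8000), and 17 of the 22 were wider than that. The widest lay in the middle stretch, at 17661000 to 17691799 (30.8 kb), and was wider than 99.2% of all adult domains. The next were at 17841600 to 17868799 (27.2 kb) in the upper stretch, the single lowest domain (24.6 kb) and 17698800 to 17721399 (22.6 kb) in the middle stretch. The 9 domains of at least 10 kb made up 70.5% of the covered length. The narrowest were at 17734800 to 17735799 (1.0 kb) and 17812200 to 17813999 (1.8 kb), each between wider neighbours. The uppermost domain, nearest the side of the gene's start, was 17908800 to 17912399 (3.6 kb), below the median of all adult domains.

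**Figure D2:**
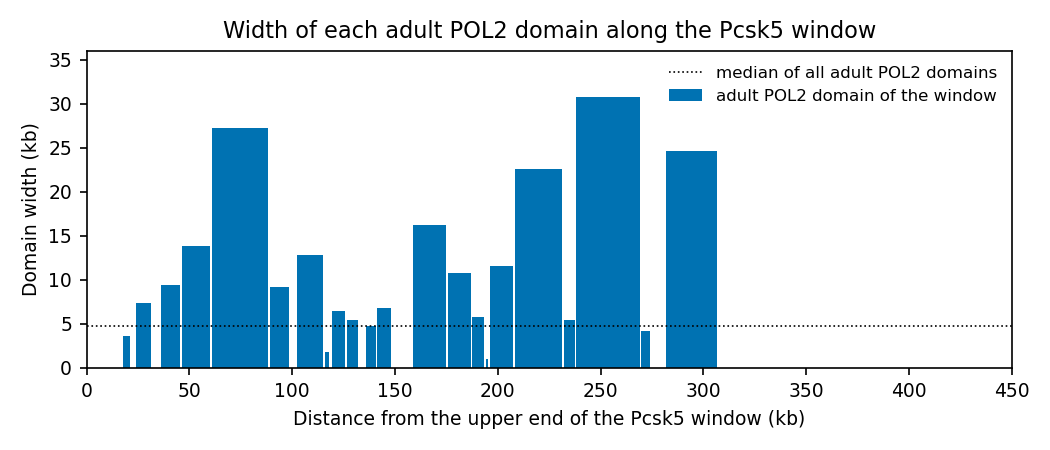
Width in kb of each of the 22 adult POL2 domains (bar height and bar breadth) by distance in kb from the upper end of the Pcsk5 window; the dotted line is the median of all adult POL2 domains, 4.8 kb. The widest bars, of 30.8, 27.2, 24.6 and 22.6 kb, are spread over the block. Of the bars below the line, those of 4.2, 1.8 and 1.0 kb lie between them, and that of 3.6 kb lies nearest the upper end.

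Much of the division into 22 domains was at the finest spacing that the list has. Starts in the adult POL2 list lie on a grid of 200 bp and neighbours are at least 800 bp apart. Of the 21 gaps within the block, 11 (52.4%) were exactly 800 bp and 19 (90.5%) were up to 5 kb. Over all 14798 gaps between neighbouring adult domains the shares were 8.19% and 28.4%, and the median gap was 19200 bp against 800 bp in the block. With these gaps joined the number went from 22 to 3 while the covered length went from 241.6 to 270.4 kb, so the block is described here mainly by its cover.

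None of the 22 domains overlapped a PD12 POL2 domain, where 45.6% of all adult domains were adult-only in this sense (6758 of 14818, exact 95% binomial interval 44.8 to 46.4). The nearest PD12 domain was at 17474600 to 17476599, 147 kb below the lowest member and 432.2 kb below the uppermost. Above the block the next PD12 domain started at 18782000, 869.6 kb away. The PD12 list was thus empty over 1305 kb, a length that 448 of its 9952 gaps (4.50%) reached. Among all those gaps, this one held the most adult POL2, 243 kb, of which 241.6 kb was in the members and the rest in the part of the adult domain just below the window that ran past the PD12 one. The next highest value was 175.2 kb, on chromosome 9, and the median was 1.6 kb.

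FOXA2 was listed far from the Pcsk5 domains in either stage. From the 22 domains to the nearest adult FOXA2 interval the distance was 148 to 433 kb, with a median of 310.2 kb, and for every domain that interval was the same one, 17474820 to 17475389 (570 bp), below the window. The median over all adult domains was 37.9 kb (interquartile range 10.5 to 94.5), and over adult-only domains 41.5 kb (12.2 to 104). An adult FOXA2 interval overlapped or touched 12.5% of all adult domains and none of the 22. All 22 had no FOXA2 interval of either stage within 100 kb, as had 22.8% of all adult domains, and 11.6% of all adult domains were both adult-only and without FOXA2 at that distance. Because the 22 lie side by side and share 1 nearest FOXA2 interval, they are 1 case and not 22.

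Toward higher positions, the next adult FOXA2 interval was at 19321126 to 19321712, 1409 kb from the block. The adult FOXA2 list was empty over 1846 kb there, a length reached by 198 of its 10353 gaps (1.91%). Of the stretches between neighbouring adult FOXA2 intervals, this one held the most adult POL2, 255 kb, followed by 244 kb in a stretch on chromosome 1. At PD12 the nearest FOXA2 intervals were 4753 kb below and 3240.3 kb above the block, in a list of 814 intervals whose median gap was 1514 kb. The gap around Pcsk5, 8282 kb, was matched or exceeded by 9.19% of PD12 FOXA2 gaps.

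**Figure D3:**
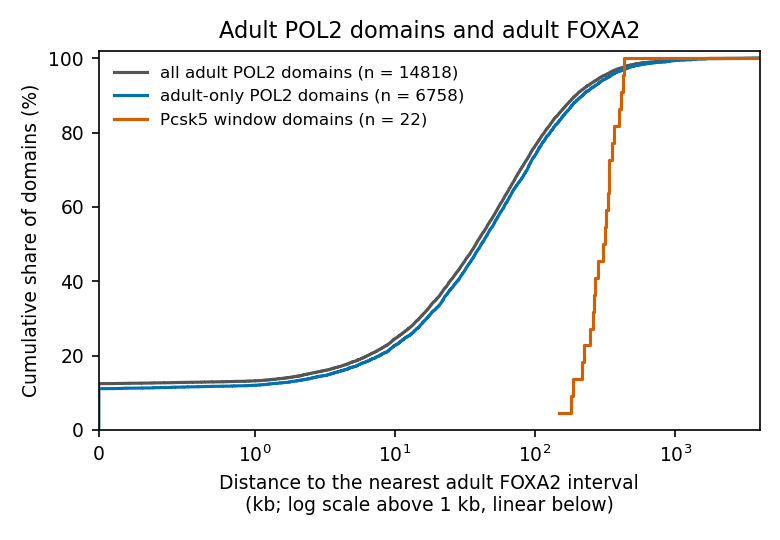
Cumulative share in percent of adult POL2 domains by distance in kb to the nearest adult FOXA2 interval (log scale above 1 kb, linear below), for all 14818 domains, for the 6758 adult-only domains and for the 22 of the Pcsk5 window. The curve of the 22 begins at 148 kb, where 14.9% of all adult domains lie as far away or farther.

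The edge of the window decides what counts as a member, and both FOXA2 and PD12 POL2 were listed just outside it. An adult POL2 domain at 17474600 to 17477999 (3.4 kb) ended 2.0 kb below the window, and a PD12 POL2 domain with the same start (2.0 kb wide) ended 3.4 kb below it. The adult FOXA2 interval nearest the members lay inside both of these domains, 4.61 kb below the window. Another adult FOXA2 interval, 17468141 to 17468880 (740 bp), lay inside a separate adult POL2 domain at 17468000 to 17469599, 11.1 kb below the window. In all, 4 adult FOXA2 intervals lay within 50 kb below the window and 8 within the 450 kb below it, of which 3 were inside an adult POL2 domain and 1 inside a PD12 one. Those 450 kb held 6.6 kb of adult POL2 in 3 domains, so the lower neighbourhood had FOXA2 with little POL2 where the window had POL2 without FOXA2. The 450 kb above the window held no interval in any of the 4 lists. Which gene the domain and FOXA2 interval just below the window belong to was not determined.

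The window was then set beside the rest of the genome in non-overlapping tiles of 450 kb. Of 3104 tiles with any POL2 at either stage, 17 (0.548%) had at least 50 kb of adult POL2 and at least 10 times the PD12 cover, and 1 of these 17, at 17550001 to 18000000 on chromosome 19, held all 22 domains. That tile had 241.6 kb of adult POL2 and 0 kb of PD12 POL2. The median tile had 18.8 kb (interquartile range 6.60 to 44.6) and 12.6 kb. Only 1 tile had more adult POL2, 264.6 kb on chromosome 1, and there PD12 POL2 covered 243.0 kb. No other tile had as large an excess of adult over PD12 cover, the next being 170.0 kb on chromosome 5 and 157.8 kb on chromosome 6, where 10 and 4 adult FOXA2 intervals were listed.

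Tiles with at least 100 kb of adult POL2 mostly had PD12 POL2 and adult FOXA2 as well. Of 150 tiles with at least 100 kb of adult POL2, the 149 others had PD12 cover at a median of 79.5% of the adult cover (interquartile range 61.0 to 92.6%), and the lowest share among them was 3.20%. They held a median of 4 adult FOXA2 intervals (interquartile range 3 to 6, highest 16). The tile with Pcsk5 was among 4 of the 150 (2.67%) with no adult FOXA2 interval. The other 3 had 116.6, 104.0 and 102.6 kb of adult POL2, on chromosomes 5, 9 and 18, and 5.6, 109 and 31.6 kb of PD12 POL2. The share without adult FOXA2 was not taken over all tiles, so a link between POL2 and FOXA2 was not tested.

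**Figure D4:**
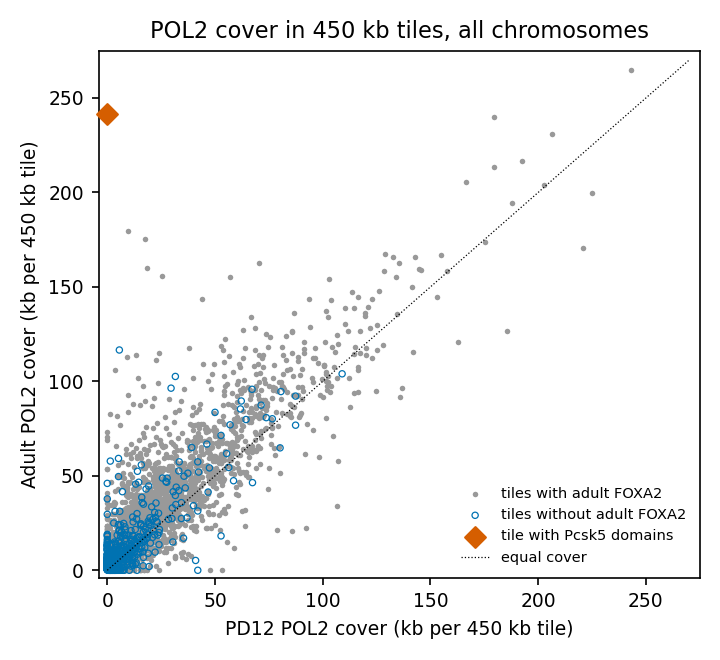
Adult against PD12 POL2 cover in kb for each of 3104 tiles of 450 kb over all chromosomes (1 library a stage); open circles are tiles with no adult FOXA2 interval, and the dotted line marks equal cover. The tile with the Pcsk5 domains (diamond) sits at 241.6 kb on the adult axis and 0 kb on the PD12 axis, away from the cloud along the line.

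The block was also long when counted in neighbouring domains. Consecutive adult domains with no PD12 domain and no FOXA2 interval of either stage in them or between them were gathered into 3853 runs, with a median of 1 domain. The Pcsk5 run of 22 domains was the longest by number and by cover. The next had 14 domains and 91.2 kb, on chromosome 2, 125145400 to 125311599. The window was chosen by these same traits, so the first place of its run is a description and no finding. The same holds for its place among the tiles and among the gaps of the PD12 POL2 and adult FOXA2 lists. The number of 22 also rests on the many gaps of 800 bp within the block.

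The regions most like it were taken as the 5 stretches with the most adult cover among those with no FOXA2 interval in them and PD12 cover of at most 10% of adult cover. Of 11353 stretches, 3752 (33.0%) met these conditions, with a median adult cover of 3.2 kb, and the upper and middle Pcsk5 stretches came first and second. The following 5 were chromosome 12, 71925800 to 72009599 (77.4 kb in the adult, 5.6 kb at PD12), chromosome 1, 45430000 to 45497399 (57.2 and 1.4 kb), chromosome 18, 30439000 to 30512999 (56.2 and 0 kb), chromosome 11, 104237200 to 104295599 (53.0 and 2.4 kb), and chromosome 5, 98340800 to 98405799 (53.0 and 0 kb). The lowest Pcsk5 stretch, of 24.6 kb, came 25th. In distance to the nearest adult FOXA2 interval these 5 ranged from 59.8 kb on chromosome 12 to 1327 kb on chromosome 18, and the 3 Pcsk5 stretches, at 148, 181 and 306 kb, fell within that range. The order by adult cover follows from how the stretches were ranked and is no finding. The genes at these 5 regions, and the other proprotein convertase genes, were not looked up because the annotation at hand is on another build.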

How the data were processed

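Whole mouse uterus was profiled by ChIP-seq, 1 library for each of 4 groups of antibody and stage. Each deposited list gives the position of every called interval (chromosome, start, end), per the file headers. Per the submitters' processing notes, the tool was BWA, without a version. Not given in the sources used here are the peak caller, its threshold, the role of the input and the build. The lists were used as deposited. Cover is the number of bp of a region inside intervals of a list, counted inclusively. Distance is the number of bp between nearest ends. The window, lists and call rules were chosen with earlier results of these data known. The text names Pcsk5, its neighbours in the RefSeq table and the 5 most similar stretches. Other convertases and known substrates had been planned but need an annotation on the build of the files. With 1 library per group no test was possible. Exact binomial 95% intervals cover counting error only. They treat domains and tiles as independent, and for cover they treat each step of 200 bp as a unit. Neighbours are not independent, so these intervals are likely too narrow. The interval functions were tested on simulated lists and gave 0 wrong answers of 900 distances. Python 3.11.15, numpy 2.4.6, pandas 2.3.3 and scipy 1.17.1 were used. Alternatives were joined gaps, the 50% widest intervals, equal list lengths (widest intervals kept), other windows, tiles and distances.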

Additional observations from a re-analysis of the deposited data

How the results depend on the processing

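Over 16 results and 68 alternatives, 50 values stayed as reported (counts and distances within 1.5 times, shares and cover within their 95% interval) and 18 moved. Many of those that stayed were values of 0 for the lists with nothing in the window. Shortening such a list or joining its gaps cannot change a 0 there, so the tally is no measure of robustness. Adult POL2 in the window, 22 domains and 241.6 kb, became 3 stretches and 270.4 kb with gaps of up to 5 kb joined, and 226.2 kb in the 50% widest intervals. With the window widened by 50 kb on each side its cover was 246.6 kb, and the domains below the edge came in, with 4 adult FOXA2 intervals (2.50 kb) and 1 PD12 POL2 interval (2.0 kb). The adult lists were also cut to the length of the PD12 lists by keeping the widest intervals, since no score was given. This cut does not match depth. It drops narrow domains first, and adult-only domains had a median width of 3400 bp against 4800 bp for all adult domains. With it, the nearest adult FOXA2 interval was 3239.5 kb away, since the cut list holds 814 intervals. The share of tiles called was 0.943% in the 50% widest intervals. Tiles with at least the window's excess were 1, the tile that holds the domains, and 0 when tiles were moved by 50% of their length. For tiles 200 kb long, the excess was instead taken over the 200 kb around the middle of the window, and 0 tiles reached it. In both cases tile borders fell inside the block. Of all adult domains, 43.6% were adult-only with gaps joined and 33.9% at equal list length. Those without FOXA2 within 100 kb were 23.7% and 67.6%, and 41.6% and 9.05% had none within 50 and 200 kb. Of the 22 window domains, all had none within 50 kb and 19 (86.4%) had none within 200 kb. No paired analysis was possible because a group is a single library.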
